A study of Danio rerio with 48 samples.

Results

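Brains of control females were compared with brains of control males in zebrafish, over all 24 control libraries of a series of 48. The comparison set 12 females against 12 males, 4 of each sex in each of the generations F0, F1 and F2, with generation as a block. The fish were adults of the AB laboratory line, and RNA came from the whole brain. These fish carry the source code SCA, taken here to mean control although no label states it. The other 24 libraries come from the PH lineage, whose F0 fish met permethrin, a pyrethroid insecticide, at 10 µg/L early in life and whose F1 and F2 fish descend from them. They are used here as separate fish in which the sex difference of a gene can be read again. Whether the 4 fish of a group had different parents or tanks is not stated, and p-values cover only the spread among the fish sampled. In F0 the file names place all control females on lane 4 and all control males on lane 2, so lane and sex cannot be told apart there. The names of F1 files give no lane. All F2 control files carry lane 3, as do the F2 files of the permethrin lineage except 2 females on lane 2.

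Laboratory zebrafish of the AB line have no known sex chromosome, and sex depends on several genes and on rearing conditions. The adult fish brain responds to sex steroids and makes them locally, and its radial glia keep dividing through life. Thyroid hormone is activated inside the brain by deiodinases, and glucocorticoids act through receptors that switch on genes such as KLF9 and CEBPD. Most of the energy of neurons comes from oxidative phosphorylation. In it, electron transport through complexes I to IV of the mitochondrial inner membrane builds the proton gradient that the ATP synthase uses.

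Counts in genes ranged from 6801503 to 8965908 per control library, and 18475 of 32520 genes had enough counts to be tested. Neuronal and glial markers were present, with means over the 12 females and 12 males of 1030 ± 497 and 890 ± 443 CPM (counts scaled to a common library size) for ELAVL3 and of 7450 ± 1530 and 10700 ± 3290 CPM for the myelin gene mbpa (SD), and neither passed the test. In these whole brains, fewer cells of a type and less RNA per cell cannot be told apart. The first principal component held 29.4% of the variance and generation 28.8% of the sum of squares, while sex held 7.84% of the sum of squares left within generations.

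Some libraries stood apart. The summed level of 42 eye genes was 30300 CPM in F0_F_SCA 18, against a highest value of 1100 CPM in the other control libraries, in F0_M_SCA 6. Muscle genes summed to 3320 CPM in F2_F_SCA 8 and 1760 CPM in F0_M_SCA 6, against at most 959 CPM elsewhere. The crystallins crygm3, CRYBB3, crygm6 and CRYBB2, structural proteins of the lens, passed the test as higher in females, but their counts came from F0_F_SCA 18: crygm3 lay at 5840 CPM there, while its median was 0.0740 CPM in females and 0 in males. The F1 male F1_M_SCA 14 lay with the females in a score built on other fish. The score is the mean log2 level of 63 genes called higher in females of the permethrin lineage minus that of 238 genes called higher in males, each relative to its generation's mean. It ranged from 0.102 to 0.531 in the 12 females and from -0.651 to -0.134 in 11 males, and was 0.264 in F1_M_SCA 14. That fish nevertheless had male levels of DIO2 (82.1 CPM) and F13A1 (0.276 CPM), genes described below.

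**Figure D1:**
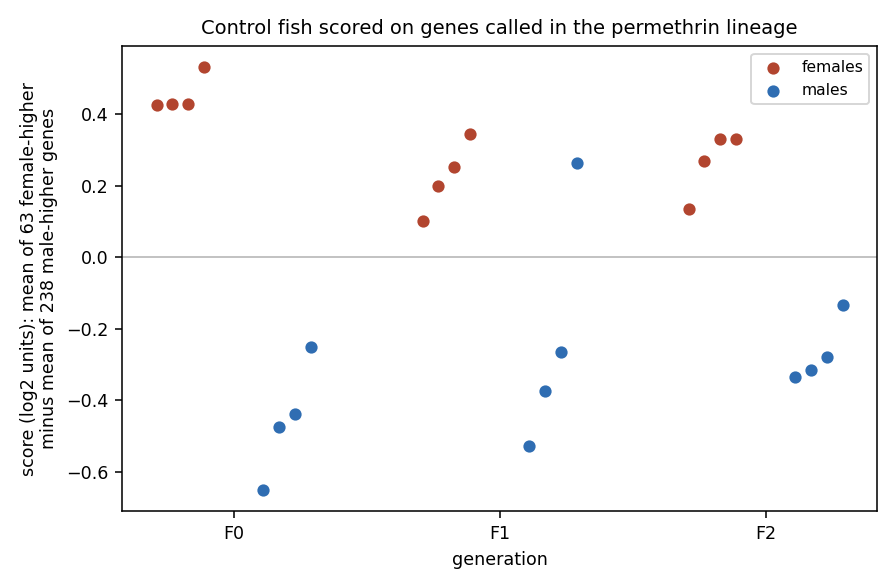
Score of each control fish (points), by generation and sex, on genes called in the permethrin lineage; the vertical axis is in log2 units and the line marks 0. All 12 females lie above 0 and 11 of 12 males below it, the exception being F1_M_SCA 14 at 0.264.

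Over the 24 fish, 535 genes passed the test, 2.90% of those tested (edgeR quasi-likelihood test, Benjamini-Hochberg adjusted p under 0.05). Of these, 158 were higher in females (0.855%) and 377 higher in males (2.04%). Most differences were small. The median absolute log2 fold change was 0.40 among genes higher in females and 0.31 among genes higher in males, and 16 and 15 genes reached a log2 fold change of 1 in size. At an unadjusted p under 0.05 there were 2964 genes. The count was 748 without F1_M_SCA 14, 844 without F2_F_SCA 9, and 330 without F0_F_SCA 18, F0_M_SCA 6 and F2_F_SCA 8. Without the 8 F0 fish it was 37, of which 34 were among the 535. In those 16 fish all 527 of the 535 genes that could be tested had the same sign, 497 of them at an unadjusted p under 0.05. The 535 genes were chosen on fish that include these 16, so that agreement is no separate test of them.

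The gene with the smallest p was DIO2, type 2 iodothyronine deiodinase, which turns thyroxine into the active hormone triiodothyronine. In F0 it lay at 13, 13.4, 14.7 and 22.6 CPM in females and at 81.1, 93.0, 104 and 112 CPM in males. In F1 the females lay at 13.4, 24.8, 28.0 and 30.9 CPM and the males at 82.1, 86.6, 104 and 111 CPM. In F2 the females lay at 28.7, 29.3, 32.6 and 35.5 CPM and the males at 79.0, 83.6, 90.3 and 109 CPM. No female reached the lowest male, and DIO2 was the only 1 of 18475 genes in which all 12 females lay apart from all 12 males (0.00541%). The means were 23.9 ± 8.27 and 94.7 ± 12.6 CPM (SD, n = 12 each), and the log2 difference was -2.03 ± 0.15 (SE, edgeR adjusted p = 1.69e-08). It was also the only gene called in each generation on its own, at -2.61 (F0), -1.99 (F1) and -1.52 (F2), although these differences between generations did not pass the test of sex by generation (edgeR adjusted p = 0.337). In the 12 females of the permethrin lineage DIO2 ranged from 10.2 to 31.0 CPM and in the 12 males from 35.9 to 106 CPM, again with no overlap (-1.86 ± 0.18, edgeR adjusted p = 3.27e-06). Of 21 tested genes of thyroid hormone signalling, 1 was called higher in males, DIO2, and 1 higher in females, KLF9, with a list median of 0.07 against 0.02 over all genes. Each is 4.76% of the list, against 2.04% of all genes called higher in males and 0.855% higher in females.

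**Figure D2:**
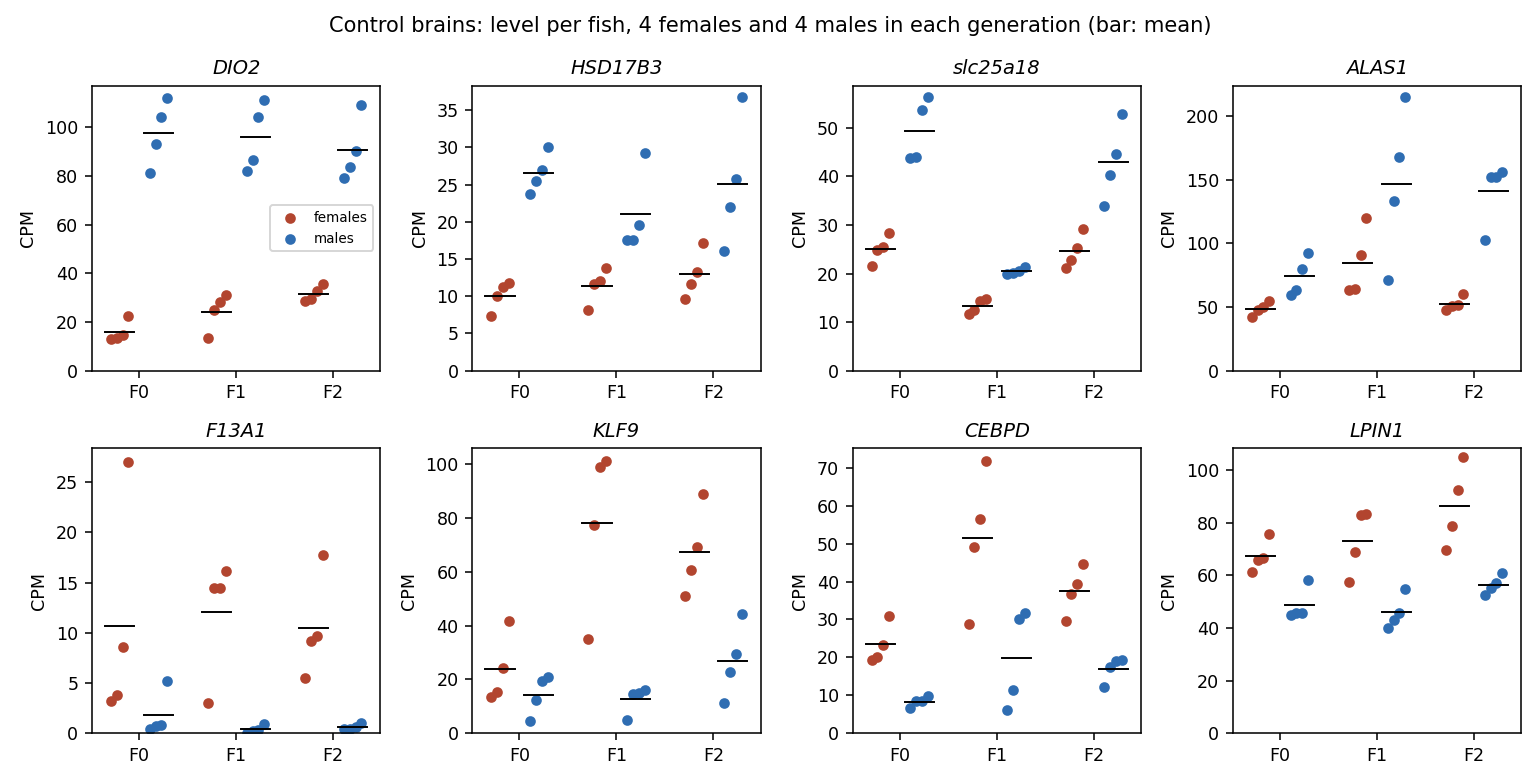
Level (CPM, linear axes from 0) of 8 genes in each control fish by generation, females in red and males in blue, with bars at group means of 4 fish. The 12 females of DIO2 lie between 13 and 35.5 CPM and the 12 males between 79.0 and 112 CPM. HSD17B3, ALAS1, F13A1, KLF9 and CEBPD each overlap between the sexes in at least 1 generation.

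Of 37 tested genes for sex steroid receptors and enzymes, 3 were called, all higher in males (8.11%, against 2.04% of all genes), and the list median was -0.03. HSD17B3, the enzyme that makes testosterone from androstenedione, ranged from 7.29 to 17.2 CPM in females with a median of 11.7, and from 16.1 to 36.8 CPM in males with a median of 24.6. The ranges met only between 1 female and 1 male of F2. Its log2 fold change was -1.08 ± 0.14 (SE, edgeR adjusted p = 1.51e-04), and -0.88 ± 0.15 in the permethrin lineage. hsd17b12b, an enzyme of fatty acid elongation that also reduces oestrone in mammals, was lower in females by a smaller step (36.4 ± 3.46 against 45.5 ± 7.03 CPM, log2 fold change -0.31 ± 0.06, edgeR adjusted p = 0.00520). Its call was lost without the F0 fish, in which lane and sex coincide, and without the generation block. PAQR6, a membrane progestin receptor, was the weakest of the 3 (-0.65 ± 0.18, edgeR adjusted p = 0.0472), and its call was lost in 18 of the 24 fits that left out 1 fish.

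The oestrogen and progesterone receptors did not pass the test. ESR1, an oestrogen receptor, had medians of 9.49 CPM in females and 9.20 CPM in males (log2 fold change -0.04 ± 0.15, edgeR adjusted p = 0.941). The other oestrogen receptors, ESR2 (ENSDARG00000016454) and ESR2 (ENSDARG00000034181), were at 0.51 ± 0.33 and -0.19 ± 0.13, and the membrane oestrogen receptor GPER1 at 0.05 ± 0.21. The progesterone receptor PGR was at 0.21 ± 0.34. For these 5 genes an absent difference was not shown, as their standard errors allow sizes near those of genes that passed. CYP19A1 (ENSDARG00000041348), an aromatase gene, had too few counts to be tested.

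Markers of gonad and liver gave no calls. None of 3 vitellogenins (yolk precursors made in the liver of females), 5 oocyte genes, 7 testis genes or 9 genes of secreted liver proteins passed. At the 2.90% called over all genes, lists of these sizes would hold few or no calls, so this is given as values only. Most of the 8 vitellogenins and 30 oocyte genes listed had too few counts to be tested. vtg1 was at 5.92 ± 2.64 CPM in females and 4.25 ± 2.92 CPM in males. Among genes of sex determination and gonad fate, 2 of 16 were called, both higher in males (12.5%, against 2.04% of all genes). They were INHBA (ENSDARG00000012671), an activin subunit, with 7.96 ± 3.80 CPM in females and 13.7 ± 6.54 CPM in males (log2 fold change -0.80 ± 0.13, edgeR adjusted p = 0.00130), and SOX9 (ENSDARG00000043923), a transcription factor of Sertoli cells that glia also express, with means of 16.8 and 25.5 CPM (-0.59 ± 0.11, edgeR adjusted p = 0.00417). INHBA (ENSDARG00000012671) lay lower in every female than in every male of F0 and of F1. The SOX9 call was lost without the F0 fish, in which lane and sex coincide, and the INHBA call without the generation block.

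Genes of oxidative phosphorylation were higher in males. Of 80 tested nuclear genes, 55 were called higher in males (68.8%, against 2.04% of all genes) and 0 higher in females, and 79 lay below 0. The list median was -0.30, against 0.02 over all genes, and was -0.30 (F0), -0.34 (F1), -0.28 (F2) and -0.25 in the permethrin lineage. The list held the same direction with median-ratio size factors, where 57 were called. Without F1_M_SCA 14, 63 were called. Without the 8 F0 fish 5 were called, with 79 of 80 below 0 and a median of -0.31.

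Over the 24 fish all 5 complexes held calls. By lists assembled after values were seen, 22 of 40 complex I subunits, 2 of 5 of complex II, 7 of 8 of complex III, 13 of 21 of complex IV and 18 of 20 ATP synthase subunits were called higher in males, with medians from -0.32 to -0.25. Of all genes 2.04% were called higher in males. Without the F0 fish, in which lane and sex coincide, no subunit of complex II or IV kept its call. By these lists the calls left were NDUFA9, NDUFB8 and ndufa4b (complex I), UQCRFS1 and UQCRQ (complex III) and ATP5F1D (ATP synthase). UQCRFS1, the iron-sulphur protein of complex III, ranged from 95.1 to 121 CPM in females with a median of 103, and from 107 to 169 CPM in males with a median of 138. Only F1_M_SCA 14, at 107 CPM, lay among the females of its generation, and the log2 fold change was -0.40 ± 0.06 (SE, edgeR adjusted p = 5.51e-04). ATP5F1D, a subunit of the ATP synthase, lay between 60.3 and 69.7 CPM in F2 females and between 77.7 and 91.0 CPM in F2 males, with log2 fold changes of -0.23 in F0, -0.40 in F1 and -0.36 in F2. NDUFA9 of complex I was at 51.7 ± 4.37 CPM in females and 64.2 ± 8.88 CPM in males (-0.31 ± 0.04, edgeR adjusted p = 5.51e-04), and the sexes did not overlap in any generation.

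Read fish by fish, the median of the 80 genes relative to the generation's mean separated the sexes in F0 and F2. In F0 the females lay at -0.22, -0.17, -0.14 and -0.05 and the males at 0.10, 0.11, 0.18 and 0.20 on the log2 scale. In F2 the females lay between -0.24 and 0.03 and the males between 0.07 and 0.26. In F1 the females lay between -0.22 and -0.12, and 3 males between 0.13 and 0.33. F1_M_SCA 14 lay at -0.12, within the range of F1 females.

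**Figure D3:**
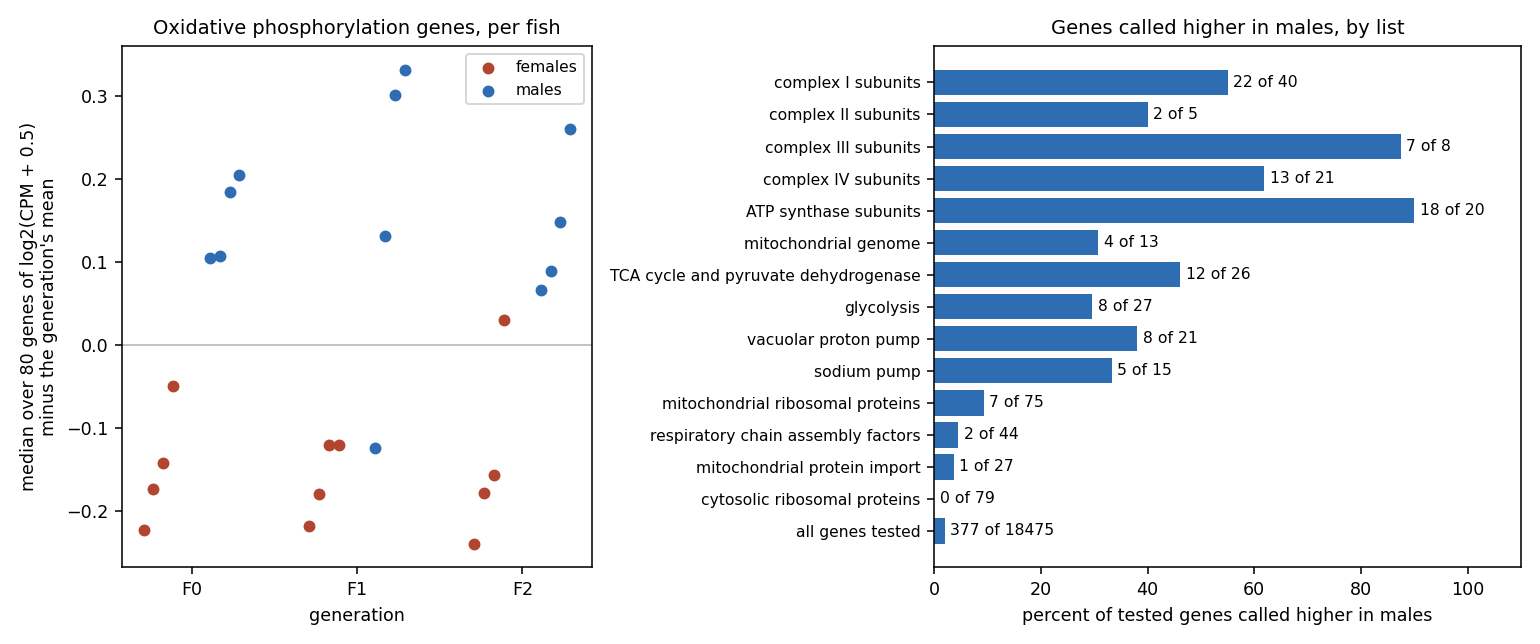
Left, the median of 80 nuclear oxidative phosphorylation genes in each control fish (log2 scale, relative to the mean of the generation), females in red and males in blue; right, the percent of tested genes called higher in males in each list. Males lie above females except F1_M_SCA 14, and the share ranges from 0 of 79 cytosolic ribosomal proteins to 18 of 20 ATP synthase subunits, against 377 of 18475 genes.

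The 13 protein genes of the mitochondrial genome, which encode core subunits of the same complexes, all lay below 0, with a list median of -0.25. MT-ND1, MT-ND2, MT-CO1 and MT-CO2 were called higher in males, 30.8% of the list against 2.04% of all genes. Leaving out 1 fish ended the call of MT-CO1 and of MT-CO2 in 15 of 24 fits each, that of MT-ND1 in 9 and that of MT-ND2 in 0, and all 4 calls were lost without the F0 fish and without the generation block. MT-CO1, a subunit of complex IV, ranged from 28300 to 43200 CPM in females and from 33800 to 52400 CPM in males, so the sexes overlapped widely (log2 fold change -0.30 ± 0.08, edgeR adjusted p = 0.0352). None of the 13 was called without F0_F_SCA 18, F0_M_SCA 6 and F2_F_SCA 8, where the median was -0.21.

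Other steps of energy metabolism, in lists assembled after values were seen, also held genes higher in males. In the tricarboxylic acid cycle and pyruvate dehydrogenase, 12 of 26 genes were called higher in males (46.2%, against 2.04% of all genes) and 0 in females. Of the 26, 24 lay below 0 and the median was -0.21. MDH2, mitochondrial malate dehydrogenase, was at 304 ± 32.1 CPM in females and 362 ± 53.8 CPM in males (log2 fold change -0.25 ± 0.05, edgeR adjusted p = 0.00320), and CS, citrate synthase, was at -0.21 ± 0.05 (edgeR adjusted p = 0.0123). In glycolysis 8 of 27 genes were called higher in males (29.6%) and 6 lay above 0. The 8 included pgam1a, a phosphoglycerate mutase (65.2 and 89.4 CPM, -0.47 ± 0.07), and PKM (ENSDARG00000099730), a pyruvate kinase (-0.25 ± 0.06). PDK2 (ENSDARG00000020876), a kinase that inhibits pyruvate dehydrogenase, was higher in females (89.4 ± 13.4 against 63.2 ± 13.3 CPM, 0.49 ± 0.10, edgeR adjusted p = 0.00455). It kept its call without the F0 fish, while MDH2, CS, pgam1a and PKM did not.

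Lists of proteins that build mitochondria, assembled after values were seen, held these calls, all higher in males. Mitochondrial ribosomal proteins were called in 7 of 75 cases (9.33%), although 74 lay below 0 with a median of -0.19. Assembly factors of the respiratory chain were called in 2 of 44 cases (4.55%, median -0.15) and protein import in 1 of 27 (3.70%, median -0.16). Both shares are near the 2.04% of all genes called higher in males, so these counts are given as values only. Among cytosolic ribosomal proteins calls were made in 0 of 79 (median 0.04), with an unchanged count of 0 with median-ratio size factors. Over all these mitochondrial lists, 87 of 275 tested genes were called higher in males and 0 higher in females. They made up 23.1% of the 377 genes higher in males, while the lists made up 1.49% of the genes tested. Most of these lists were assembled after values were seen, so the shares describe the lists and are no test of them.

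Ion pumps, large users of ATP, also included genes higher in males. In lists assembled after values were seen, 5 of 15 sodium pump genes (33.3%) and 8 of 21 vacuolar proton pump genes (38.1%) were called, all higher in males. Of all genes 2.04% were called higher in males. atp1a3b, whose mammalian counterpart is the alpha subunit of the sodium pump of neurons, lay at 603, 748, 778 and 856 CPM in F0 females and at 1350, 1530, 1630 and 2000 CPM in F0 males. Over all fish its means were 816 ± 153 and 1460 ± 298 CPM (log2 fold change -0.84 ± 0.12, edgeR adjusted p = 5.08e-04), and F1_M_SCA 14, at 880 CPM, lay among the F1 females. Every one of these sodium and proton pump calls, that of atp1a3b included, was lost without the F0 fish, in which lane and sex coincide. In the permethrin lineage the 12 females (750 to 1010 CPM) and the 12 males (1100 to 1890 CPM) did not overlap in atp1a3b. slc25a18, a glutamate carrier of mitochondria that astrocytes express in mammals, had the second smallest p. It lay between 21.6 and 28.3 CPM in F0 females and between 43.8 and 56.4 CPM in F0 males, and in F1 between 11.6 and 14.7 CPM in females and up to 21.4 CPM in males. The sexes did not overlap within any generation, although F1 fish of both sexes lay lower than the other generations (-0.81 ± 0.08, edgeR adjusted p = 3.02e-06).

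Some genes of haem, iron and red blood cells were higher in males. The list of haem synthesis and iron uptake was assembled after values were seen. In it 3 of 15 genes were called, all higher in males, while 2.04% of all genes were called higher in males. Of the 15 genes, 4 lay above 0 and the median was -0.08. ALAS1, which starts haem synthesis in most tissues, lay at 47.7, 50.9, 51.7 and 60.4 CPM in F2 females and at 103, 152, 152 and 156 CPM in F2 males. In F1 the sexes overlapped, since F1_M_SCA 14 lay at 70.9 CPM, and over all fish the log2 fold change was -0.94 ± 0.16 (SE, edgeR adjusted p = 0.00140). tfr1b, a transferrin receptor that takes up iron, was at 32.4 ± 11.2 CPM in females and 81.9 ± 33.0 CPM in males (-1.33 ± 0.25, edgeR adjusted p = 0.00417). The largest difference was in hbaa2, an alpha globin, ranging from 0.137 to 10.1 CPM in females and from 5.80 to 44.3 CPM in males (-2.62 ± 0.40, edgeR adjusted p = 6.47e-04). HBE1 (ENSDARG00000069734), a beta-type globin, was at -1.71 ± 0.32 and alas2, the erythroid form of the enzyme, at -0.87 ± 0.17. Leaving out the F0 fish, in which lane and sex coincide, ended the calls of tfr1b, hbaa2 and alas2, but not those of ALAS1 and HBE1. In the permethrin lineage ALAS1, hbaa2 and alas2 passed, while tfr1b (-0.65, edgeR adjusted p = 0.142) and HBE1 (-1.24, edgeR adjusted p = 0.0506) did not. Globin genes have close copies, so their counts are uncertain.

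Of 15 erythrocyte genes 3 were called higher in males, 13 lay below 0 and the median was -0.33. Over all genes 2.04% were called higher in males. Without the F0 fish, in which lane and sex coincide, 0 of 14 tested erythrocyte genes were called. Of these 14 genes, 11 lay below 0 and the median was -0.23. The summed level of that list had medians of 336 CPM in F0 females and 428 CPM in F0 males, 615 and 626 CPM in F1, and 380 and 509 CPM in F2. Males thus had the higher median in each generation, and in F2 the females (346 to 393 CPM) and the males (424 to 551 CPM) did not overlap. The part of blood left in the dissected brains in these results was not tested.

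Among signalling genes, GAL, the precursor of the neuropeptide galanin, was the 1 called gene of 47 neuropeptide precursors, a share of 2.13% against 2.04% of all genes higher in males. It ranged from 8.76 to 30.8 CPM in females with a median of 24.1, and from 13.1 to 81.6 CPM in males with a median of 48.4 (log2 fold change -1.0 ± 0.24, edgeR adjusted p = 0.0219). Without F0_M_SCA 2, the male at 81.6 CPM, GAL no longer passed, nor did it without the F0 fish. IGF1, insulin-like growth factor 1, was the 1 called gene of 22 in the growth hormone axis (4.55%). In F0 females it lay between 1.26 and 1.86 CPM and in F0 males between 4.64 and 9.72 CPM, whereas in F2 the lowest male, at 1.81 CPM, lay among the females. Its log2 fold change was -1.31 ± 0.22 (edgeR adjusted p = 0.00161) and did not pass without the F0 fish. CA6, a secreted carbonic anhydrase, was at 8.46 ± 3.38 CPM in females and 17.7 ± 4.23 CPM in males (-1.11 ± 0.14, edgeR adjusted p = 1.51e-04), and in the permethrin lineage all 12 females lay below all 12 males.

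Some glial genes were higher in males. Of 30 genes of radial glia and astroglia 5 were called higher in males (16.7%, against 2.04% of all genes). They included ID1, SLC4A4 (ENSDARG00000013730), S100B and GJA1, while the list median was -0.05 and 12 of the 30 lay above 0. ID1, which keeps adult neural stem cells of the zebrafish from dividing, lay between 50.7 and 59.7 CPM in F0 females and between 82.0 and 130 CPM in F0 males. It did not overlap between the sexes in any generation (log2 fold change -0.71 ± 0.10, edgeR adjusted p = 5.51e-04). In the list of myelin and oligodendrocytes 5 of 23 were called higher in males (21.7%), with 9 above 0 and a list median of -0.05. That median was -0.40 in F0, -0.06 in F1, -0.09 in F2 and -0.37 in the permethrin lineage. cldnk, a claudin of myelin in fish, was at means of 36.1 CPM in females and 50.8 CPM in males (-0.49 ± 0.08, edgeR adjusted p = 6.64e-04), and OLIG2, UGT8 and FA2H were called too. Leaving out the F0 fish, in which lane and sex coincide, ended the calls of ID1, SLC4A4 (ENSDARG00000013730), S100B, cldnk, OLIG2, UGT8 and FA2H. The S100B call was also lost in 12, and the FA2H call in 13, of the 24 fits that left out 1 fish. LAPTM4B, a protein of lysosomal membranes, had the third smallest p, with 157 to 209 CPM in females and 192 to 284 CPM in males (-0.46 ± 0.06, edgeR adjusted p = 7.17e-05).

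Among genes higher in females, F13A1 (ENSDARG00000045453), the A subunit of coagulation factor XIII, a transglutaminase also made by macrophages, had the largest difference of called genes with a symbol, the crystallins aside. It lay at 3.01, 14.5, 14.5 and 16.2 CPM in F1 females and at 0, 0.276, 0.367 and 0.948 CPM in F1 males. In F2 the females lay between 5.50 and 17.7 CPM and the males between 0.417 and 1.04 CPM, and in F0 1 male, F0_M_SCA 6, lay at 5.23 CPM within the female range. The log2 fold change was 3.64 ± 0.50 (SE, edgeR adjusted p = 5.03e-04). In the permethrin lineage 12 females (2.95 to 14.6 CPM) and 12 males (0 to 1.69 CPM) did not overlap. None of 28 genes of microglia and macrophages was called, with a list median of 0.10. At the 2.90% called over all genes, a list of this size would hold few or no calls.

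Targets of glucocorticoids included genes higher in females. In the list of the stress axis and glucocorticoid response, 6 of 34 genes were called higher in females (17.6%, against 0.855% of all genes) and 1, sgk1, higher in males, with a list median of 0.10. Without the F0 fish, the generation in which lane and sex coincide, 2 of the 6, KLF9 and PDK2 (ENSDARG00000020876), were called and sgk1 was not. KLF9, a zinc finger factor that responds to both glucocorticoids and thyroid hormone, lay at 35.2, 77.5, 98.8 and 101 CPM in F1 females and at 4.78, 14.6, 14.9 and 16.1 CPM in F1 males. In F0 the sexes overlapped, with 13.5 to 41.7 CPM in females and 4.74 to 21.0 CPM in males, and over all fish the log2 fold change was 1.56 ± 0.32 (edgeR adjusted p = 0.00784). CEBPD, a transcription factor of the acute response, was at 37.5 ± 15.8 CPM in females and 15.1 ± 8.70 CPM in males (1.33 ± 0.20, edgeR adjusted p = 5.51e-04). DDIT4, an inhibitor of mTOR signalling, was at 0.65 ± 0.12 and DUSP1, a phosphatase of MAP kinases, at 0.59 ± 0.16. sgk1, a kinase that glucocorticoids induce in many tissues, went the other way (means of 125 against 156 CPM, -0.33 ± 0.07, edgeR adjusted p = 0.00562).

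Of 44 immediate early genes 7 were called higher in females (15.9%, against 0.855% of all genes) and 0 higher in males, with a median of 0.22. SOCS3 and DUSP1 are members of both this and the stress list. SOCS3 (ENSDARG00000025428), an inhibitor of cytokine signalling, lay between 22.5 and 29.9 CPM in F0 females and between 2.77 and 8.13 CPM in F0 males, and in F1 the ranges of 23.5 to 52.4 and 3.92 to 31.1 CPM overlapped (1.26 ± 0.26 over all fish, edgeR adjusted p = 0.00805). DUSP2 was at 0.88 ± 0.17, csrnp1a at 0.74 ± 0.18 and EGR3 at 0.41 ± 0.09. The list median per generation was 0.42 (F0), 0.02 (F1) and 0.15 (F2), and none of the 44 was called without the F0 fish. Of 50 circadian clock genes 4 were called higher in females, against 0.855% of all genes, with a median of 0.15. That median was -0.05 in F0, 0.30 in F1 and 0.33 in F2. The calls of USP2 and csnk1da were each lost in 15 of the 24 fits that left out 1 fish. Leaving out the F0 fish ended the calls of USP2, csnk1da and CSNK1D, but not that of nfil3-6. nfil3-6, a bZIP repressor of clock output, lay between 243 and 384 CPM in F2 females and between 87.9 and 193 CPM in F2 males (0.86 ± 0.17, edgeR adjusted p = 0.00460).

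In 3 genes (0.0162% of those tested) every female lay above every male of her generation. LPIN1, a phosphatidate phosphatase that also acts on gene expression, lay at 57.4, 68.9, 83.0 and 83.2 CPM in F1 females and at 40.2, 43.0, 45.9 and 55.0 CPM in F1 males, and at 69.8 to 105 and 52.5 to 61.1 CPM in F2 (0.58 ± 0.08, edgeR adjusted p = 1.51e-04). SOX11 (ENSDARG00000095743), a transcription factor of immature neurons, was at 246 ± 57.8 CPM in females and 164 ± 35.0 CPM in males (0.57 ± 0.08, edgeR adjusted p = 5.51e-04). PLK2 (ENSDARG00000019130), a kinase that neuronal activity induces in mammals, was at 76.5 ± 14.9 and 53.6 ± 13.7 CPM (0.53 ± 0.08, edgeR adjusted p = 5.51e-04). These 3 were chosen after their values were seen. A further 18 genes, 17 of them called, showed the same separation with males higher, 0.0974% of those tested and together 21 of 18475 genes (0.114%). Beside DIO2, slc25a18, LAPTM4B, ID1 and NDUFA9 they included RHBG, an ammonia transporter (-0.51 ± 0.06), SUCLA2, a subunit of succinyl-CoA ligase (-0.23 ± 0.05), CPT2, which serves import of fatty acids into mitochondria (-0.29 ± 0.06), and tgfb5 (-0.49 ± 0.07). Calls of PLK2, SUCLA2 and CPT2 were lost without the F0 fish. CPT2 was at 0.018 in the permethrin lineage (edgeR adjusted p = 0.961).

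Each generation taken alone gave fewer calls. In F0 195 genes were called (1.06%), 93 higher in females (0.503%) and 102 in males (0.552%). In F1 16 were called (0.0866%), 7 higher in females (0.0379%) and 9 in males (0.0487%), and in F2 9 were called (0.0487%), 1 in females (0.00541%) and 8 in males (0.0433%). These counts were unsteady. Leaving out 1 of the 24 fish moved the F0 count by over 1.5 times in 8 fits (27 without F0_M_SCA 2, 331 without F1_M_SCA 14), the F1 count in 22 (1 without F1_F_SCA 7, 90 without F1_M_SCA 14) and the F2 count in 10 (1 without F2_F_SCA 6, 27 without F2_F_SCA 9). Without F0_F_SCA 18, F0_M_SCA 6 and F2_F_SCA 8 only 3 genes were called in F0. At an unadjusted p under 0.05 the generations gave 2512, 2712 and 1455 genes (13.6, 14.7 and 7.88%). Only DIO2 was called in every generation.

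The 535 genes were chosen from these same fish, so their values in each generation only describe how evenly the differences were spread. Of 158 genes higher in females, 153 had the same sign in all 3 generations, and of 377 higher in males all 377 did, against 31.9% of all genes tested. The 5 exceptions differed in sign in F1. An unadjusted p under 0.05 with the same sign was reached by 73.8, 69.9 and 65.0% of the 535 in F0, F1 and F2, and by 154 genes (0.834% of genes tested) in each of the 3, 31 higher in females and 123 in males. Of these 154 genes 41 were mitochondrial, by lists mostly assembled after values were seen. All 4 females lay above all 4 males in 83 (F0), 55 (F1) and 52 (F2) of the 158 genes, against 4.83, 2.96 and 2.02% of all genes tested. All 4 males lay above all 4 females in 224, 116 and 147 of the 377, against 5.36, 3.70 and 2.44%. Medians of the genes higher in females were 0.41, 0.38 and 0.35 in F0, F1 and F2, and those of the genes higher in males -0.33, -0.31 and -0.29.

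**Figure D4:**
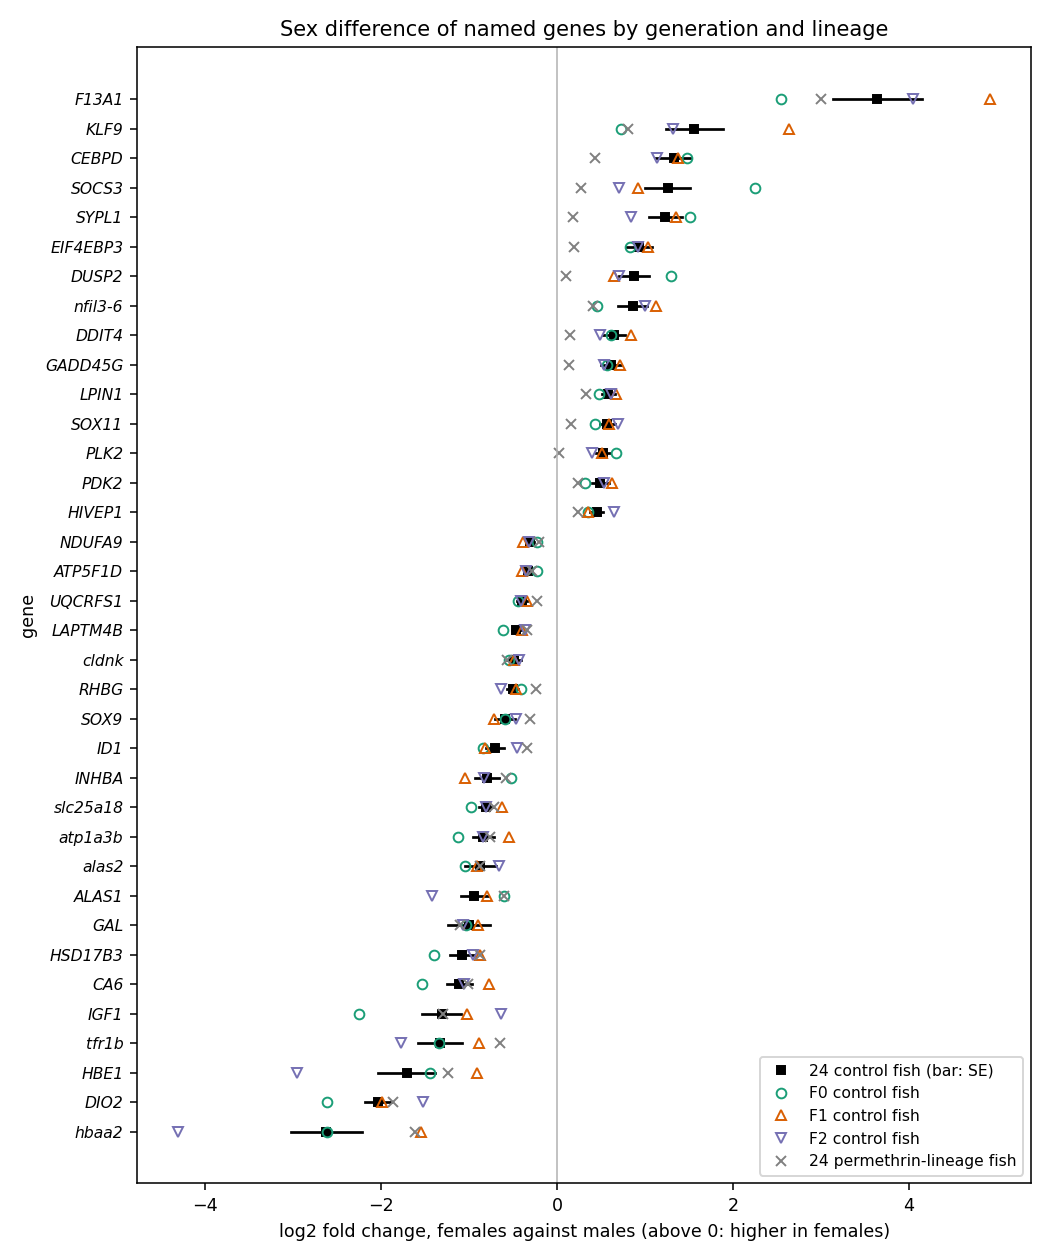
Log2 fold change of females against males for 36 named genes, over the 24 control fish (squares with SE), within F0, F1 and F2 (open symbols) and over the 24 permethrin-lineage fish (crosses); values above 0 are higher in females. Every control symbol of a gene lies on the same side of 0, and the spread between generations is widest for hbaa2 and F13A1. All 15 crosses of genes higher in females lie nearer to 0 than their squares. So do the crosses of genes higher in males, except those of cldnk, alas2 and GAL. All genes shown were called in the control fish.

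The test of sex by generation called 0 of 18475 genes with edgeR, with 1813 at an unadjusted p under 0.05 (9.81%), and 95 with DESeq2. Among the 535 genes the share at that unadjusted p was 8.60%. The smallest adjusted p was 0.0515, for PER2, itgam.1 and BGN (ENSDARG00000002945). PER2, a light-responsive clock gene, lay at 102, 118, 124 and 141 CPM in F0 females and at 179, 263, 308 and 318 CPM in F0 males. In F2 the females lay between 167 and 206 CPM and the males between 125 and 172 CPM, and the log2 fold changes were -1.14 in F0, 0.58 in F1 and 0.39 in F2. Without F0_M_SCA 17, 35 genes passed this test, 10 genes without F2_F_SCA 9, 6 genes without F1_F_SCA 4, 5 genes without F1_M_SCA 5 and 2 genes without F0_F_SCA 15.

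F0 was the generation in which lane and sex coincide in the control fish, whereas all F0 fish of the permethrin lineage carry lane 4 in the file names. Of the F0 calls, 191 could be tested in those 8 fish. The sign was the same in 179, against 63.2% of all genes tested in both. Of 89 genes higher in control F0 females 78 had that sign, with a median log2 fold change of 0.64 in control and 0.30 in permethrin-lineage fish, and of 102 higher in males 101 did, with medians of -0.68 and -0.45. In the control fish of F1, 50 of the 93 F0 calls higher in females and 88 of the 102 higher in males had the same sign, against 46.6 and 48.3% of all genes on that side of 0 in F0. In F2 72 and 81 had it, against 55.1 and 47.7%. Medians of the F0 calls higher in females were 0.02 in F1 and 0.14 in F2, and those of the calls higher in males -0.25 and -0.18. Across all 18475 genes, which are not independent replicates, the log2 fold changes of F0 had a Pearson r of -0.02 with those of F1 and of 0.00 with those of F2. These permethrin-lineage fish differ from the control fish by their exposure, and the part of lane was not tested further.

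The permethrin lineage gave a second reading of the sex difference in separate fish. There 301 of 18362 genes were called (1.64%), 63 higher in females and 238 in males. Of the 535 genes called in control fish, 528 could be tested, and 511 of them (96.8%) had the same sign, against 65.1% of all genes tested in both. Both lineages called 162 genes, out of 535 in control fish and 301 in the permethrin lineage. Sharing was 146 of 376 (38.8%) for genes higher in males and 16 of 152 (10.5%) for genes higher in females. The median log2 fold change of genes higher in males was -0.31 in control and -0.22 in permethrin-lineage fish, and that of genes higher in females 0.40 and 0.15. Values of genes chosen for passing a test tend to be larger in the fish they were chosen in.

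**Figure D5:**
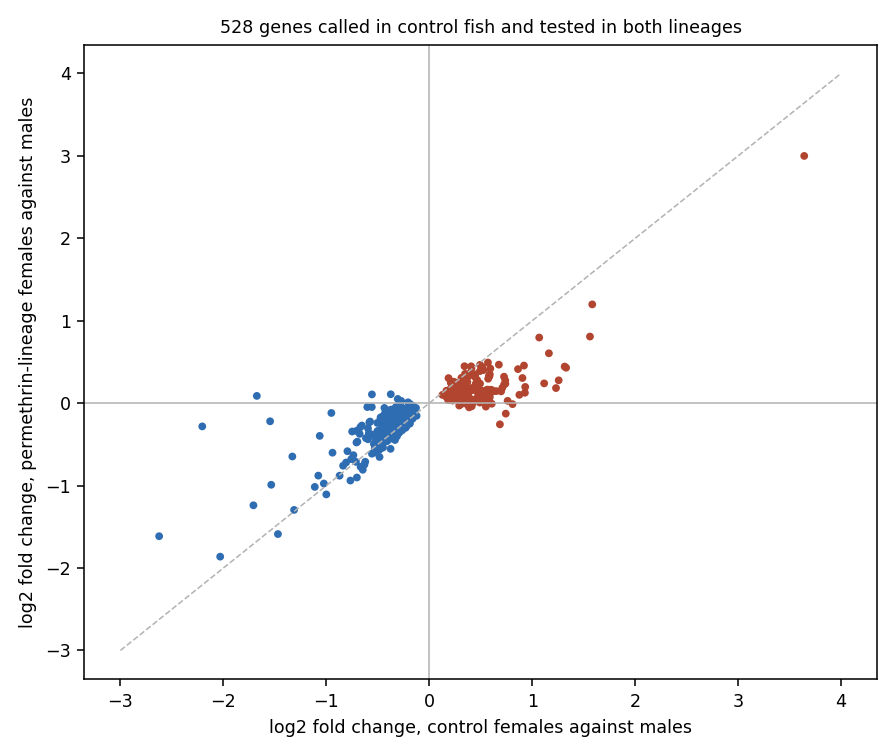
Log2 fold change of females against males in the permethrin lineage (vertical axis) against that in control fish (horizontal axis) for the 528 genes called in control fish and tested in both; red points are higher in control females, blue points in control males, and the dashed line marks equal values. Of the 528 points 511 have the same sign on both axes, and medians on the vertical axis are 0.15 for red and -0.22 for blue points.

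Among the genes that carried the control result, F13A1 (3.0 ± 0.28), DIO2, atp1a3b, CA6 (-1.02 ± 0.13), HSD17B3 and slc25a18 (-0.72 ± 0.09) passed again in the permethrin lineage, as did LPIN1 (0.32 ± 0.08, edgeR adjusted p = 0.0368). KLF9 was at 0.81 ± 0.44 there, with 0.980 to 111 CPM in females and 0.497 to 43.8 CPM in males, and did not pass (edgeR adjusted p = 0.508). CEBPD (0.43 ± 0.27), SOCS3 (0.28 ± 0.37), SOX11 (0.16 ± 0.11) and PLK2 (0.02 ± 0.20) did not pass either. The test of sex by lineage over all 48 libraries called 0 of 19062 genes with edgeR, with 761 at an unadjusted p under 0.05, and 2 with DESeq2. A difference between the lineages is therefore not shown for any of these genes by edgeR.

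Counts in many other lists were near the 2.90% called over all genes, at which lists of these sizes would hold few or no calls, and are given as values only. None of 27 telencephalon, 26 hypothalamus and 32 tectum and habenula genes, 46 cell cycle genes, 39 genes of cilia, 24 of antigen presentation, 17 of the interferon response or 5 of lymphocytes was called. Of 61 genes of GABA and glutamate synapses 1 was called, GAD1 (ENSDARG00000027419), which makes GABA (695 ± 73.0 CPM in females and 812 ± 77.3 CPM in males, -0.23 ± 0.05, edgeR adjusted p = 0.0118). Of 60 voltage-gated ion channel genes 1 was called higher in males and 1 higher in females, the sodium channel gene scn1lab (0.34 ± 0.08). Of 31 monoamine genes the dopamine receptor DRD2 (ENSDARG00000011091) was called higher in females (0.58 ± 0.16, edgeR adjusted p = 0.0423), a call lost in 17 of the 24 fits that left out 1 control fish. Of 31 muscle genes none was called. Of 42 eye genes 1 was called, CRYBB2, although 40 lay above 0 with a median of 1.09, and the median summed level of that list was higher in females of each generation (509 against 195 CPM in F0, 605 against 156 in F1 and 332 against 165 in F2).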

How the data were processed

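Total RNA of dissected whole brains was sequenced in paired ends (BGISEQ-500), per the labels' protocols. The submitters' processing notes name STAR 2.7, HTSeq 0.11.2, DESeq2 1.24.0 and the build GRCz11 (danRer11). The sources used here give no strand setting or annotation release. Reads of overlapping or antisense genes therefore cannot be told apart. The authors deposited raw counts per gene for each library, with summary lines that name no gene: pairs over no feature were 60.3 to 65.1% of a control library, and pairs in genes 31.6 to 36.5%.

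Counts were filtered with filterByExpr over the 6 groups, scaled by TMM and fitted with edgeR 4.0.16 in R 4.3.3 (robust quasi-likelihood test) on sex with generation as a block, and on 6 group means for each generation and for sex by generation. The biological coefficient of variation was 25.2 and 24.0%. A call is a Benjamini-Hochberg adjusted p under 0.05 over all genes tested. Standard errors were taken from the F statistic. The code was tested on simulated data. Levels are CPM on TMM-adjusted library sizes of the 24 control libraries, and those of the permethrin lineage rest on a scaling of their own. Between control libraries of a group, chi-square over its degrees of freedom was at least 4.44, so none was counted as a duplicate.

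Symbols came from a reference table that named 29201 of 32520 IDs, often in human spelling; 6136 IDs share a symbol, and then the ID is printed. The comparison, the 40 gene lists (1425 of 1527 members matched) and the named genes were chosen with earlier results of these data known. The rule for named genes took the 12 largest called fold changes per direction with a mean of at least 1 CPM, genes called in every generation, up to 4 called members per list, sex steroid receptors and vitellogenins; 37 further genes and 13 lists (complexes, glycolysis, pumps and the like) were added after values were seen. Alternatives were median-ratio size factors, no filter or 1 CPM in 4 libraries, DESeq2 1.42.0, all 48 libraries in 1 fit, no generation block, and libraries left out. Some genes are not reported here.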

Additional observations from a re-analysis of the deposited data

Results flagged for a closer look

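The levels of 29 genes per control fish were examined for a fish far from the other 3 of its group, in 174 groups. The gap to the nearest fish, divided by the range, exceeded Dixon's critical value in 11 groups (6.32%), where chance gives about 1 in 20. F13A1 (ENSDARG00000045453) was flagged in the male F0_M_SCA 6 at 5.23 CPM and in the female F1_F_SCA 8 at 3.01 CPM. The library F0_M_SCA 6 also stood apart in muscle genes. KLF9 was low in F1_M_SCA 10 at 4.78 CPM, and ID1 was high in the same fish at 193 CPM. LPIN1 was high in F0_M_SCA 17 at 58.3 CPM. GAL was high in F0_M_SCA 2 at 81.6 CPM and low in F2_M_SCA 5 at 13.1 CPM, and ALAS1 was low in F2_M_SCA 5 at 103 CPM. IGF1 was low in F2_M_SCA 7 at 1.81 CPM, tfr1b was low in F2_M_SCA 10 at 61.0 CPM, and cldnk was low in F1_M_SCA 14 at 43.5 CPM.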

How the results depend on the processing

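No paired analysis was possible because females and males of a generation share no fish number that marks a pair. In each of these settings the cause of a moved count was not tested. With DESeq2 988 genes were called over the 24 fish, 521 in F0, 428 in F1, 89 in F2, 9 in every generation, 95 by sex by generation, 574 in the permethrin lineage and 2 by sex by lineage. With all 48 libraries in 1 fit, 378 were called in F0, 39 in F1, 41 in F2, 2 in every generation and 2 by sex by generation. Without a filter on low counts 126 were called in F0 and 6 in F1, and with a minimum of 1 CPM in 4 libraries 5 in F1. With F1 fitted alone, 3 were called. The next settings, with libraries left out together, were chosen after seeing the data. Without F0_F_SCA 18, F0_M_SCA 6 and F2_F_SCA 8, 330 were called over the rest, 3 in F0, 9 in F1, 2 in F2 and 1 by sex by lineage, and GPER1 was at -0.014 and PER2 at 0.040. Leaving out F1_M_SCA 14 too gave 32 in F0, 59 in F1, 2 in F2 and 1 by sex by lineage, with GPER1 at -0.061. Without the 8 F0 fish 37 genes and 5 of oxidative phosphorylation were called, with PER2 at 0.490, itgam.1 at 0.464, ESR1 at 0.163 and GPER1 at -0.035. Without the generation block 121 genes and 9 of oxidative phosphorylation were called, and PER2 was at 0.007. At a log2 fold change of at least 1 in size 31 were called. Leaving out 1 fish gave 361 to 844 genes over the control fish, 45 to 65 of oxidative phosphorylation, 27 to 331 in F0, 1 to 90 in F1, 1 to 27 in F2, 1 to 2 in every generation, 0 to 35 by sex by generation, 211 to 343 in the permethrin lineage and 0 to 1 by sex by lineage. Among those fits PER2 reached 0.008 to 0.057, ESR1 0.002 to 0.039 and GPER1 -0.042 to -0.001 where their sign reversed. The uncalled genes PER2 (-0.117 to 0.490), ESR1 (-0.102 to 0.163) and GPER1 (-0.061 to 0.139) changed sign over the settings.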
